A study of Zea mays with 6 samples.

Results

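The rows described here are the transcribed loci of maize (Zea mays) chromosome 4 that lie below the level of the storage protein transcripts. They are the rows of chromosome 4 with at least 1 RPKM in at least 3 of the 6 libraries and a mean of the 6 deposited values below 1000 RPKM. RPKM is a read number scaled to the length of the gene model and to the library's reads. The rule took 2820 of the 4310 chromosome 4 rows, and 28084 of all 41406 rows meet the same pair of limits. Of the other chromosome 4 rows, 1470 were below the lower limit and 20 were at or above 1000 RPKM. The members were chosen by their measured RPKM levels, so levels are given as a description with no test. The genotype of the libraries played no part in the choice.

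The libraries were made from total RNA of pooled kernels at 15 days after pollination. Per the labels, 3 were wild type (WT) and 3 came from kernels homozygous for a zmbzip22 mutation. The kind of allele, the parent line of the WT kernels and whether each library had its own ears are not in the labels. The p-values below therefore set the genotype difference only against the spread among these libraries, and that spread may be technical. In both genotypes, replicates 1 and 2 had barcodes of 6 bases and replicate 3 a barcode of 8 bases. In whole kernels, fewer cells of a type and less RNA per cell cannot be told apart.

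A maize kernel consists of the embryo, the starchy endosperm with its aleurone layer, and maternal tissues. During grain filling the endosperm makes zeins, the main storage proteins, and starch. Chromosome 4 is known for large tandem arrays of alpha-zein genes, for floury2, itself an alpha-zein allele, and for the starch genes sugary1 and brittle2. The protein encoded by zmbzip22 is a basic leucine zipper transcription factor known to bind the promoter of a gamma-zein gene. Maize chromosomes carry more genes toward their ends than around the centromere. The files name rows only by coordinates of the build B73 RefGen_v3, so no row was matched to any of these genes, and neither kernel tissue markers nor the mutated gene could be looked up. Whether a locus lies in an exon, an intron or an untranslated region was not analysed here.

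The deposited values fell on whole numbers of reads, which gave the depth. The read totals were 15287996, 11329983 and 15533529 for WT replicates 1, 2 and 3. They were 14785269, 15878131 and 14347675 for zmbzip22 replicates 1, 2 and 3. At these totals 3 reads on a 1 kb model correspond to 0.189 to 0.265 RPKM, a floor that covers counting error only. Whole reads were recovered for 2799 of the 2820 members, with a median of 81 reads per member and library, and 70 members had fewer than 30 reads over the 6 libraries. Levels below are in scaled RPKM, the deposited value divided by a median-of-ratios factor of 0.948 to 1.03 per library.

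The members lay between positions 30307 and 241961162 and were densest toward the ends. The window from 230 to 240 Mb held 311 members, the most of any 10 Mb window. The windows from 90 to 100, 100 to 110 and 110 to 120 Mb held 40, 36 and 40. Levels varied less than numbers did. The median level per window ran from 4.26 scaled RPKM at 80 to 90 Mb to 11.5 at 30 to 40 Mb, and over all members it was 7.08. On the other chromosomes, under the same limits, medians ran from 6.43 to 7.67, so the typical level of chromosome 4 lay within their range.

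**Figure D1:**
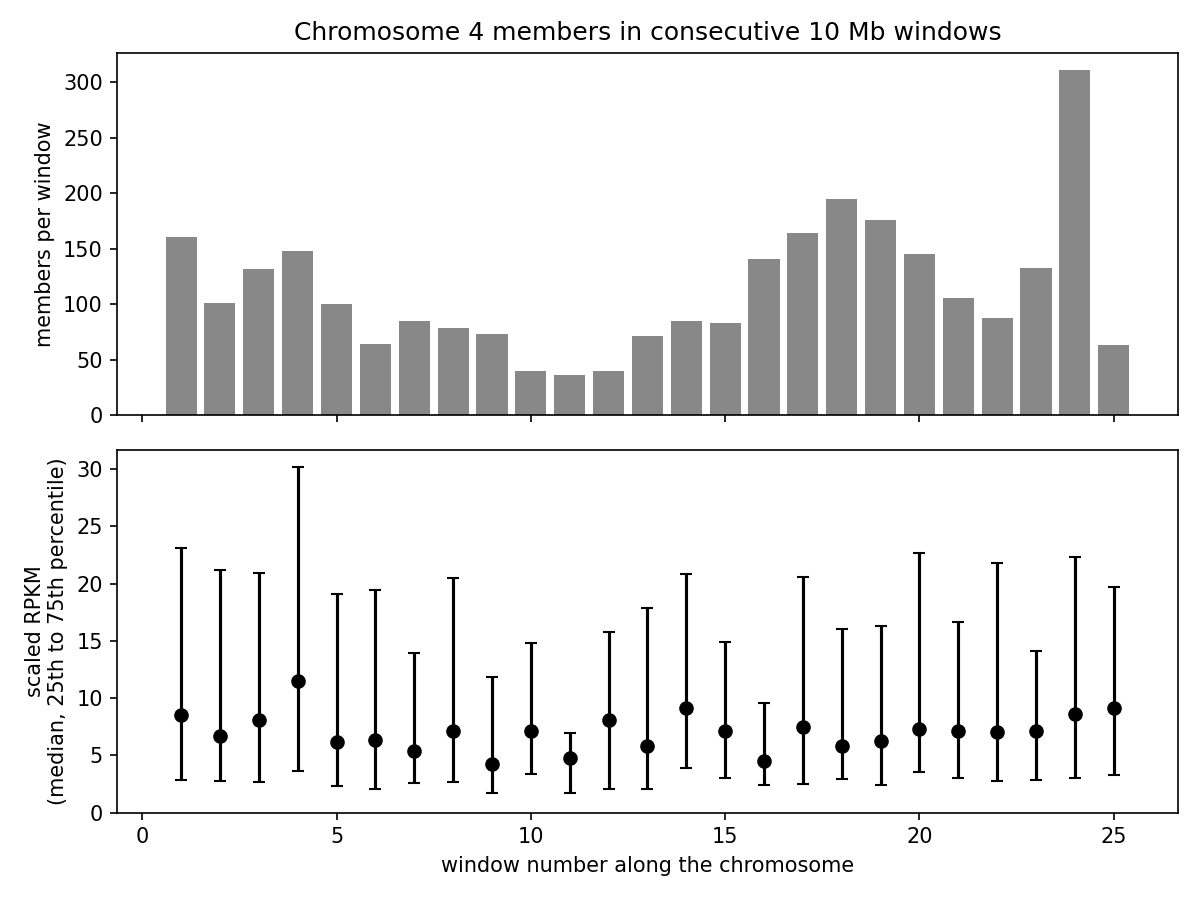
Members in consecutive 10 Mb windows from the start of chromosome 4 (horizontal axis, window number). The upper panel gives the number of members and the lower panel the median level in scaled RPKM with the 25th to 75th percentiles over members. Numbers fall to 36 in window 11 and rise to 311 in window 24, while medians stay between 4.26 and 11.5.

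Most members were low: 1661 had a mean below 10 scaled RPKM, 1030 lay between 10 and 100, and 129 at 100 or more. Wide loci were more abundant than narrow ones. Loci of up to 500 bases had a median of 4.42 scaled RPKM over 115 members, and those wider than 10 kb a median of 10.2 over 302 members. All 6 libraries reached 1 RPKM in 2444 members. In 16 members only the 3 WT libraries did so, and in 11 only the 3 mutant libraries, so these passed the lower limit through 1 genotype alone.

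The most abundant member was the locus at 218054499 to 218057037. It stood at 961, 916 and 1110 scaled RPKM in WT and at 892, 944 and 1120 in the mutant, and the genotypes overlapped. The next was the locus at 30089545 to 30091004, with 859, 947 and 1160 in WT and 835, 781 and 1070 in the mutant. These are the members just inside the upper limit, with deposited means of 993 and 946.6 RPKM. The rows just outside it, at 36338849 to 36340309 and at 58979525 to 58985686, had means of 1111 and 1637 RPKM. At the lower limit, the members just inside had third-highest values of 1.002 RPKM (113617609 to 113619573) and 1.009 RPKM (189422914 to 189430781). The rows just outside had 0.9996 RPKM (229621457 to 229623515) and 0.9967 RPKM (9355158 to 9359830). The third most abundant member, at 14877066 to 14881858, measured 785, 908 and 929 in WT and 843, 774 and 789 in the mutant. The fifth, at 5094104 to 5094990, measured 487, 512 and 713 in WT and 532, 505 and 740 in the mutant. In both genotypes its highest value came from replicate 3. The fourth, at 133130992 to 133134382, measured 651, 726 and 818 in WT and 612, 477 and 596 in the mutant. It was the only one of the 5 whose genotypes did not overlap, and it was not called (limma, log2 difference -0.38, unadjusted p = 0.0153, adjusted p = 0.317).

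Together the members summed to 64168 ± 1810 scaled RPKM in WT against 64050 ± 1800 in the mutant (SD, n = 3; exact two-sided permutation, p = 0.7, smallest possible 0.1). Of the summed level of all rows they made up 4.31, 4.58 and 5.27% in the WT libraries, against 4.85, 4.72 and 5.16% for the mutant. The difference between genotypes was smaller than the spread between replicates, and its sign turned without WT replicate 3 or without zmbzip22 replicate 2, where the mutant was 795 and 726 scaled RPKM higher.

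The comparison of the genotypes asks which of these transcripts differ when the bZIP factor is mutated. Of 2818 members that passed the filter of the fit, 10 were higher and 7 lower in the mutant (limma over all rows, adjusted p below 0.05, here called). That is 0.603% of the members, against 0.692% of all 28163 rows tested and 0.381% on chromosomes other than 4 and 7. Chromosome 7, left out of the second background, had the highest share called of any chromosome, 3.96% under the same limits on level. By direction, the background over all rows was 0.391% higher and 0.302% lower, and on chromosomes other than 4 and 7 it was 0.186% higher and 0.195% lower. The share of called members was thus near the background over all rows. The absolute log2 differences of the 17 ran from 0.49 to 2.71, with a median of 0.97. The 10 rises and 7 falls were scattered, and no 2 called members were nearest neighbours. Of the 17 called members 14 reached 1 RPKM in all 6 libraries.

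The largest fall was at 54364448 to 54364621, a locus of 174 bases. It stood at 29.7, 37.4 and 31.8 scaled RPKM in WT and at 4.21, 8.66 and 1.72 in the mutant. In reads this was 34, 33 and 40 against 5, 11 and 2, and the highest mutant library was far below the lowest WT library. The log2 difference was -2.71 (SE 0.402, limma, adjusted p = 0.0397). The fall at 176483245 to 176484169 rested on fewer reads, 18, 20 and 18 in WT against 4, 5 and 4 in the mutant. WT stood at 5.24, 7.56 and 4.77 scaled RPKM and the mutant at 1.12, 1.31 and 1.15, and the log2 difference was -1.62 (limma, adjusted p = 0.0119). The mutant libraries were close to each other there and WT replicate 2 was the highest.

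Among the other falls, 3 were low rows with 26 reads or fewer per library. At 165667700 to 165668420 the levels were 2.14, 2.58 and 1.81 scaled RPKM in WT against 0.59, 0.552 and 0.301 in the mutant. All 3 mutant libraries were below the filter of 1 there, so the locus was tested only because WT was high, and its place among the 7 falls is not independent of the filter. The log2 difference was -1.1 (limma, adjusted p = 0.0418). The locus at 35382868 to 35384288 fell from 4.86, 4.13 and 3.57 to 1.8, 1.35 and 1.66, a log2 difference of -0.99 (limma, adjusted p = 0.0405). That at 36529537 to 36529882 fell from 2.82, 3.66 and 3.11 to 0.97, 1.27 and 1.19, a log2 difference of -0.97 (limma, adjusted p = 0.0405). In each of these the genotypes were separate, although the lowest mutant libraries held only 2, 8 and 5 reads.

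The remaining 2 falls were measured on 94 reads or more in every library. The locus at 233866449 to 233870093 stood at 33.8, 27.7 and 27.4 scaled RPKM in WT and at 14.7, 16.3 and 15 in the mutant. The WT mean was 1.93 times the mutant mean, with a log2 difference of -0.9 (SE 0.101, limma, adjusted p = 0.014). The locus at 153421584 to 153425648 stood at 16.9, 15.9 and 15.8 in WT and at 9.54, 8.76 and 8.64 in the mutant. Replicates differed little in either genotype, and the log2 difference was -0.79 (SE 0.0849, limma, adjusted p = 0.0119).

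The largest rise was at 134793015 to 134794148, where WT was nearly without reads. The libraries held 0, 4 and 1 reads in WT and 18, 20 and 27 in the mutant. In scaled RPKM this was 0, 1.18 and 0.206 against 3.94, 4.09 and 6.03, a log2 difference of 2.02 (SE 0.304, limma, adjusted p = 0.0405). Of the WT libraries only replicate 2 reached the filter of 1 there. The locus was thus tested only because the mutant was high, and its place among the rises is not independent of the filter. The locus at 23376818 to 23377046, 229 bases wide, measured 6.44, 7.57 and 10.9 in WT and 22.8, 21.3 and 21.4 in the mutant. Its 3 mutant libraries lay within a narrow range, about 2.63 times the WT mean, with a log2 difference of 1.32 (limma, adjusted p = 0.0222). The locus at 105204216 to 105205395 measured 23.1, 26.9 and 34.3 in WT and 56.5, 63.8 and 58.7 in the mutant, on 154 to 526 reads per library. The genotypes were well apart, and the log2 difference was 1.08 (SE 0.136, limma, adjusted p = 0.0229). At 164809396 to 164812037 the levels were 9.66, 7.17 and 5.86 in WT and 16, 15.8 and 16.3 in the mutant. The reads there were few, 21, 12 and 14 in WT against 36, 38 and 36 in the mutant. The WT libraries varied more than the mutant ones, and the log2 difference was 1.01 (limma, adjusted p = 0.0434).

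Of the 6 smaller rises, the one with the lowest adjusted p was at 170036779 to 170046677. It stood at 12, 13 and 13.5 scaled RPKM in WT and at 22, 23.1 and 25.6 in the mutant, on 237 to 617 reads. The mutant mean was 1.84 times the WT mean, with a log2 difference of 0.83 (SE 0.09, limma, adjusted p = 0.0123). The locus at 231484765 to 231485503 measured 24.8, 20.6 and 19.1 in WT and 42, 36 and 36.5 in the mutant, a log2 difference of 0.81 (limma, adjusted p = 0.0317). The locus at 40043232 to 40048838 rose from 17.2 ± 0.422 to 27 ± 2.61 scaled RPKM (SD, n = 3), with a log2 difference of 0.62 (limma, adjusted p = 0.0326). The most abundant called member, at 122702505 to 122703826, rose from 43.1 ± 1.49 to 63.4 ± 5.37 (SD, n = 3), with a log2 difference of 0.54 (limma, adjusted p = 0.0363). The smallest called change was at 5319595 to 5320814, with 19.6, 18.5 and 19.5 in WT and 28.9, 27.5 and 25.9 in the mutant, a log2 difference of 0.49 (limma, adjusted p = 0.0405).

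The last of the rises shared its locus with other rows. The span from 186832741 to 186886262, 53522 bases wide, carried 3 member rows. The called row measured 3.49, 3.56 and 4.08 scaled RPKM in WT against 7.21, 8.54 and 6.62 in the mutant, a log2 difference of 0.84 (limma, adjusted p = 0.0405). It rested on few reads, 14, 11 and 18 in WT against 30, 38 and 27 in the mutant. The other rows had log2 differences of -0.34 and -0.01 and were not called (limma, adjusted p = 0.307 and 0.985). Rows of 1 locus may share reads, and the labels do not say how such reads were counted.

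**Figure D2:**
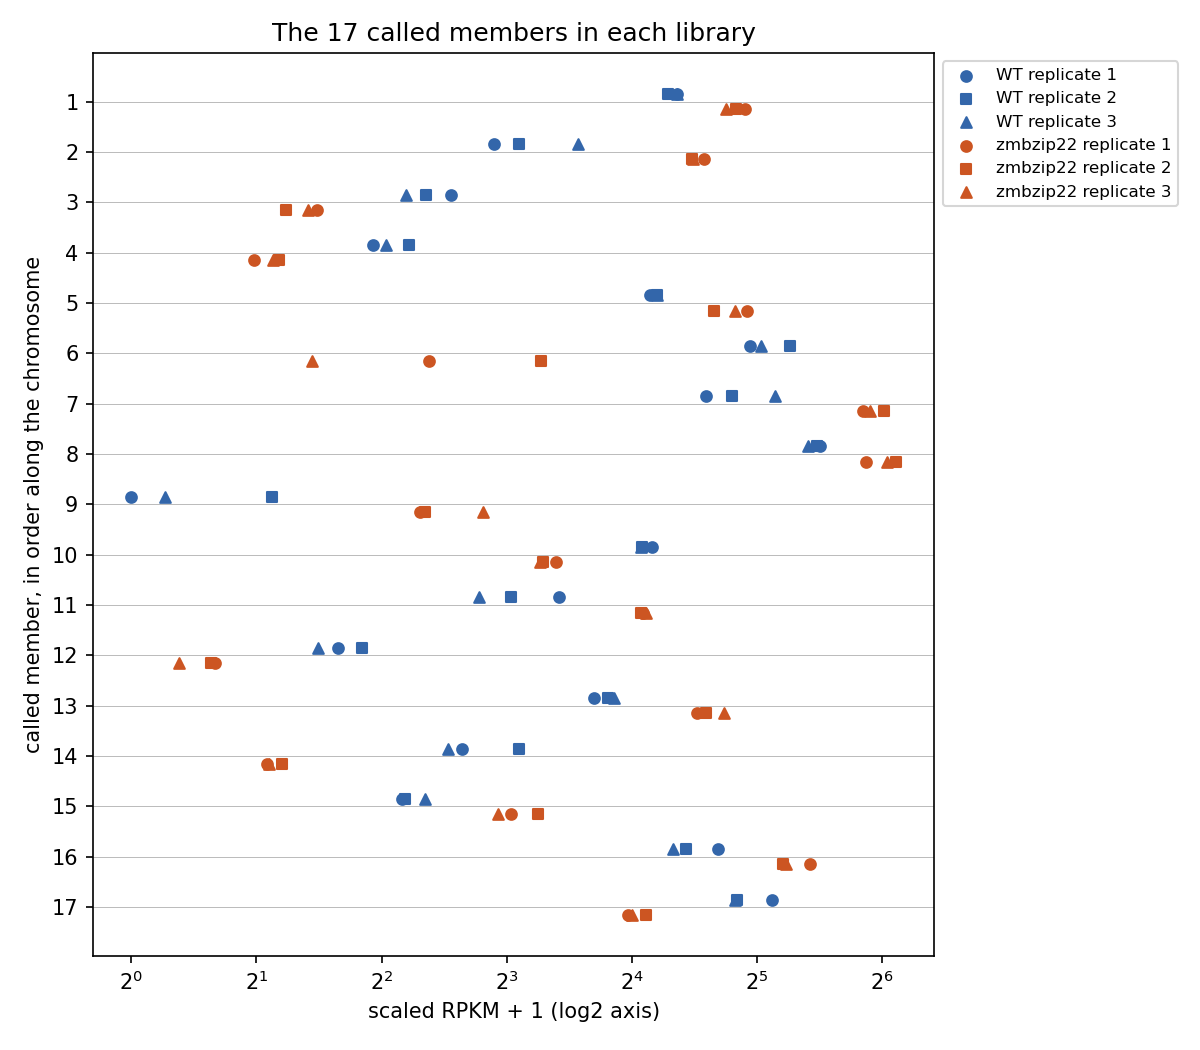
Level of each of the 17 called members in the 3 WT and 3 zmbzip22 libraries, as scaled RPKM plus 1 on a log2 axis (1 point per library; members are numbered in order along the chromosome). In each member the 3 WT points lie wholly to 1 side of the 3 mutant points, which the call itself favours.

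The calls rested on all 6 libraries. With 1 library left out, limma called 4, 2 and 7 members without WT replicates 1, 2 and 3, and 2, 7 and 5 without zmbzip22 replicates 1, 2 and 3. Over all rows the share called also fell, to between 0.166 and 0.267%. The fall at 176483245 kept its call in 4 of the 6 such fits and lost it without WT replicate 1 or zmbzip22 replicate 1 (limma, adjusted p up to 0.0737). The call at 153421584 and that at 170036779 were kept in 3, and were lost when WT replicate 1, WT replicate 2 or zmbzip22 replicate 2 was left out (limma, adjusted p up to 0.0746 and 0.0702). The call at 233866449 was also kept in 3, and was lost when WT replicate 2, zmbzip22 replicate 1 or zmbzip22 replicate 3 was left out (limma, adjusted p up to 0.087). The fall at 54364448 was called only without zmbzip22 replicate 2 or 3 (limma, adjusted p otherwise up to 0.169). In 1 such fit each, 6 members were called: 23376818 and 105204216 when WT replicate 3 was left out, 164809396 and 231484765 when it was WT replicate 1, 134793015 when it was WT replicate 2, and 40043232 when it was zmbzip22 replicate 2. The other 6, at 5319595, 35382868, 36529537, 122702505, 165667700 and 186832741, were called in none of the 6 (limma, adjusted p up to 0.191).

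Barcode length was also fitted. When the limma model also held the length of the barcode, 50 members were called for that length, 43 of them higher and 7 lower in the 8-base libraries. This was 1.77% of the members, against 1.81% of all rows. Of the 17 called members, 0 were called for barcode length. With so low a share in general, this cannot show that barcode length left the called members unmoved. In that fit 38 members were called for genotype, the 17 among them, while the share over all rows was 1.33%. There 2 members were called for both genotype and barcode length. The 4 libraries of 6-base barcodes alone gave 4 calls, 2 of them among the 17, and called 0.247% of all rows.

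Several loci were not called but held a row that passed in some of the alternative fits. They were picked here for their values and those fits, and are given as a description. Each failed in other alternative fits, and not every fit that called it is named. The locus at 53787903 to 53825627 was lower in the mutant, with 69.7, 62 and 77.4 scaled RPKM in WT against 36.6, 37.4 and 48 in the mutant (log2 difference -0.77, limma, adjusted p = 0.0548). It was called with the barcode covariate and without zmbzip22 replicate 3 (limma, adjusted p = 0.00414 and 0.0372). The locus at 70343519 to 70344158, 640 bases wide, measured 1.52, 1.98 and 5.01 in WT and 11, 13 and 9.73 in the mutant (log2 difference 1.77, limma, adjusted p = 0.0639). Its WT replicate 3 stood apart from the other WT libraries, and without that library the locus was called (limma, log2 difference 2.15, adjusted p = 0.00681). The locus at 195937820 to 195938401 gave 2 rows that moved alike. The first stood at 398, 243 and 221 in WT and at 646, 498 and 692 in the mutant, and the second at 118, 67.5 and 81.3 against 192, 132 and 267. Both had a log2 difference of 1.12 and did not pass (limma, adjusted p = 0.101 and 0.18), but the first was called without WT replicate 1 (limma, log2 difference 1.38, adjusted p = 0.0405). They were the only members of at least 100 scaled RPKM with a difference of 2-fold or more. None of the 129 members at that level was called, where 0.692% of all rows were, so the class is too small to read this as a result.

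An unadjusted p below 0.05 was found for 324 members, 151 higher and 173 lower in the mutant (limma). This was 11.5% of the members tested, against 9.83% of all rows and 8.35% on chromosomes other than 4 and 7. By direction the background was 5.05% higher and 4.78% lower over all rows, and 4.3 and 4.04% on those chromosomes. Under the same limits on level it was 22.8% on chromosome 7 and ran from 7.22 to 9.59% on the other 8 chromosomes. In 480 members, 17% of those tested, the genotypes did not overlap, 224 higher and 256 lower; over all rows this was 15.7%, with 7.89% higher and 7.86% lower. On chromosomes other than 4 and 7 it was 14.4%, with 7.24% higher and 7.18% lower. The shares by level are given as a description with no test. Of members below 10 scaled RPKM, 11.5% had an unadjusted p below 0.05, of those between 10 and 100, 11.8%, and of those at 100 or more, 8.53%. On chromosomes other than 4 and 7 the shares in these level classes were 8.75, 7.75 and 7.82%. The shares of chromosome 4 and of those chromosomes were closest in the highest class, which held only 129 members here. The excess of chromosome 4 over those chromosomes stood in each of the 14 alternative fits, with 9.36 to 14.9% on chromosome 4 against 6.53 to 11.3%. On the log2 scale of the fit, 21 members differed by 2-fold or more at any p, 0.745% of those tested, against 0.749% of all rows. That scale adds 1 to each level and understates changes of low rows, so some low members with 2-fold differences between means are not counted.

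These members were spread unevenly along the chromosome. From 0 to 60 Mb they made up 12.3% of the members tested, from 60 to 120 Mb 13.6%, from 120 to 180 Mb 14.7%, and from 180 Mb to the end 7.93%. Of 47 windows of 5 Mb with at least 20 tested members, 7 had a share of 20% or more, a limit chosen after the values were seen. On chromosome 7 this held for 20 of 34 windows, and on the other 8 chromosomes together for 5 of 315. Leaving out 1 library left 3 such windows on chromosome 4 when it was WT replicate 1, WT replicate 2 or zmbzip22 replicate 1. It left 4 for zmbzip22 replicate 2 or 3, and 6 for WT replicate 3. The other 8 chromosomes then had 2 to 9. In some other alternative fits their number rose more. It was 27 of 315 with barcode length as a covariate and 26 of 315 with a replicate block, where chromosome 4 had 8 and 10 of 47. With a filter of 5 scaled RPKM it was 16 of 266, against 5 of 37 on chromosome 4.

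**Figure D3:**
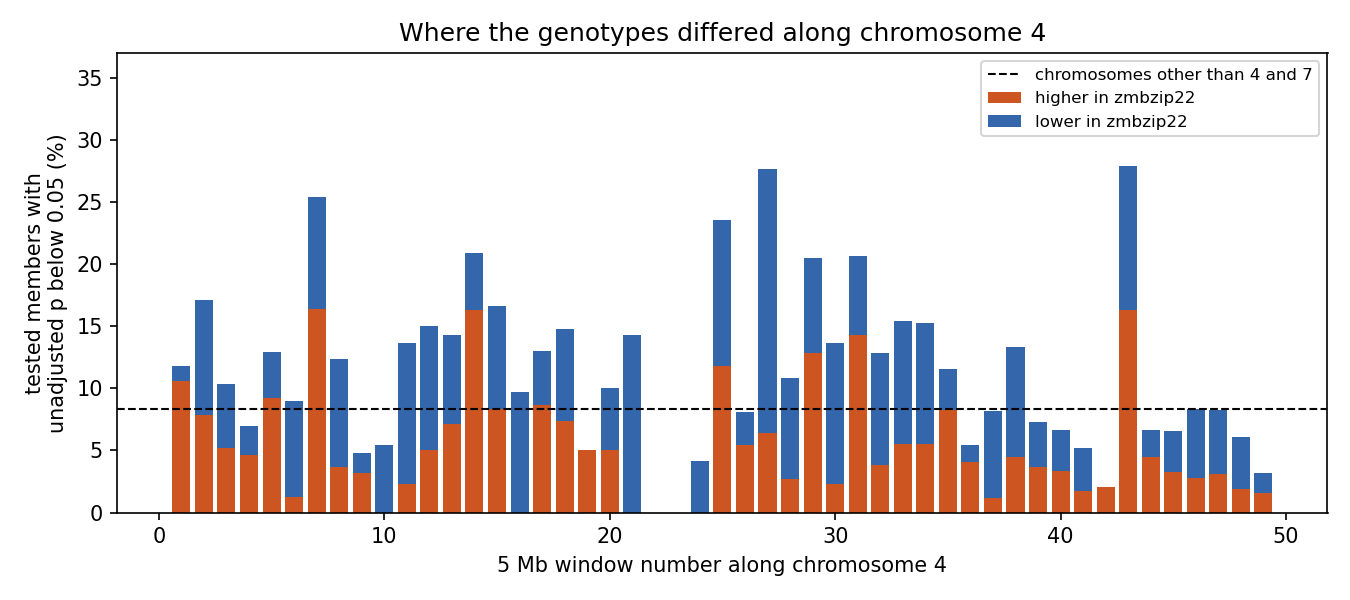
Share of tested members with an unadjusted p below 0.05 in consecutive 5 Mb windows of chromosome 4 (bars, split by direction; windows with fewer than 20 tested members are left blank). The dashed line marks the share on chromosomes other than 4 and 7. The highest bars, at windows 7, 27 and 43, reach 25.4, 27.7 and 27.9%.

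Directions differed from window to window. From 130 to 135 Mb, 13 of 47 members had such a p, 3 higher and 10 lower. The lower members ranged from the abundant locus at 133130992, given above, to low neighbours such as 134350965 to 134352287 and 134357681 to 134358777. The second of these measured 5.66, 5.78 and 5.98 scaled RPKM in WT against 3.51, 3.28 and 3.59 in the mutant, with replicates close to each other (log2 difference -0.61, limma, adjusted p = 0.0635). From 30 to 35 Mb, 17 of 67 members had such a p, 11 higher and 6 lower. From 65 to 70 Mb it was 9 of 43, 7 higher and 2 lower, and from 150 to 155 Mb 13 of 63, 9 higher and 4 lower. The windows from 120 to 125 and from 140 to 145 Mb had 8 each, of 34 and 39 members, with 4 and 5 higher.

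The window from 210 to 215 Mb, with 12 of 43, held a group of narrow loci that were mostly higher in the mutant. Between 210009805 and 211057563 lay 10 members with loci 576 to 693 bases wide. Their log2 differences were positive in 9 of 10, with a median of 0.72, and 6 had an unadjusted p below 0.05. Of these 10, 0 were called (limma). The other 10 members from 210014178 to 211258734 had a median of -0.06, and the 46 members of 570 to 700 bases elsewhere on the chromosome a median of 0.07. Of those 46, 28 had a positive log2 difference and 10 an unadjusted p below 0.05, 8 of them higher in the mutant. The group was delimited after its values were seen, so it is described with no test.

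The most abundant of the narrow loci was at 211012664 to 211013348. It stood at 57.8, 50 and 62 scaled RPKM in WT and at 97.3, 75.5 and 119 in the mutant, on 141 to 445 reads, and the genotypes did not overlap. Its log2 difference was 0.75 (limma, adjusted p = 0.124). The locus at 210926464 to 210927115 measured 42.1, 36.2 and 55.3 in WT and 93.9, 55.8 and 117 in the mutant. There zmbzip22 replicate 2 was just above WT replicate 3 (log2 difference 0.94, limma, adjusted p = 0.257). At 210132505 to 210133188 the values were 15.9, 21.7 and 23.3 in WT and 41.8, 26.4 and 49.9 in the mutant (log2 difference 0.89, limma, adjusted p = 0.21). Again zmbzip22 replicate 2 was the lowest mutant library. The exception was the locus at 211039613 to 211040216, with 47.5, 40.9 and 55.7 in WT and 60.9, 35.9 and 47.2 in the mutant, a log2 difference of -0.02.

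Summed over the 10 narrow loci, the levels were 228, 204 and 260 scaled RPKM in WT against 400, 266 and 431 in the mutant. The lowest mutant sum, that of replicate 2, was little above the highest WT sum. For the other 10 members the sums were 121, 120 and 113 in WT and 113, 102 and 111 in the mutant. The median log2 difference of the narrow loci ran from 0.61 to 0.89 over the fits without 1 library, and was 0.89 without zmbzip22 replicate 2. Loci of nearly the same width in the same region may be copies that share reads, and the labels do not say how reads with several alignments were treated. The split among the loci is therefore uncertain.

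**Figure D4:**
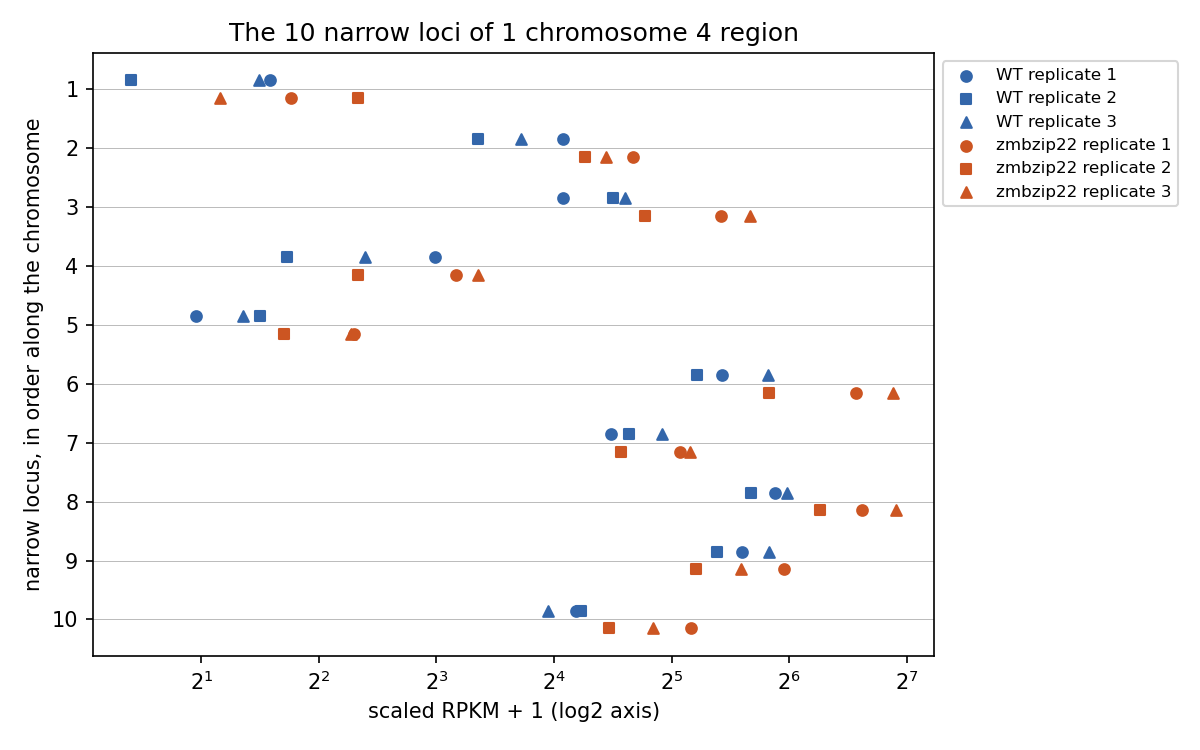
Level of the 10 narrow loci of the window from 210 to 215 Mb in each library, as scaled RPKM plus 1 on a log2 axis (1 point per library; loci are numbered in order along the chromosome). In 6 loci the mutant points lie above all WT points, and in 9 loci zmbzip22 replicate 2 is the lowest mutant point.

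A similar pattern appeared at a pair of loci near the far end of the chromosome, each 757 bases wide. The locus at 236302565 to 236303321 stood at 59.8, 53.5 and 65.5 scaled RPKM in WT and at 113, 87.5 and 128 in the mutant (log2 difference 0.85, limma, adjusted p = 0.0567). The locus at 236344679 to 236345435 stood at 69.4, 50.9 and 66.2 in WT and at 119, 72 and 116 in the mutant (log2 difference 0.68, limma, adjusted p = 0.285). Both were higher in each mutant library than in any WT library, and again zmbzip22 replicate 2 was the lowest mutant library. A row between them, at 236304584 to 236308119, overlapped between genotypes, with 39.4, 37.2 and 33.8 in WT and 32.6, 38.7 and 36.5 in the mutant. Without zmbzip22 replicate 2 the first of the pair was called (limma, adjusted p = 0.0327), as were the loci at 12312515 to 12313350 and 222563732 to 222564584 (limma, adjusted p = 0.0181 and 0.0328). The pair, too, was picked for its values.

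Whether neighbouring loci move together was described over all members. Overlapping loci were merged to their most abundant row, which left 2546 loci, and 1775 pairs of consecutive loci lay at most 100 kb apart. In 52.5% of the pairs both loci had the same sign of the genotype difference (exact 95% binomial interval 50.1 to 54.8%, counting error only, with pairs taken as independent). The correlation of the log2 differences across these pairs was 0.08. Pairs share the libraries, and each locus enters 2 pairs. On the other chromosomes the share ran from 50.4 to 52.8%. On chromosome 4 the share was highest for gaps of 5 to 20 kb, at 58.3% of 343 pairs with a correlation of 0.21. There the other chromosomes ran from 47.4 to 54.6%, and their correlations from -0.11 to 0.22. For the closest pairs, with gaps of up to 5 kb, the share on chromosome 4 was 53.7% of 557 pairs with a correlation of 0.07. Other chromosomes ran from 47 to 55.1% at those gaps, with correlations from -0.01 to 0.21. For gaps of 20 to 100 kb the share on chromosome 4 was 49.4%, and for 100 to 500 kb 48.5%. Rows of 1 and the same locus, which may share reads, agreed in sign in 167 of 292 pairs, 57.2%.

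**Figure D5:**
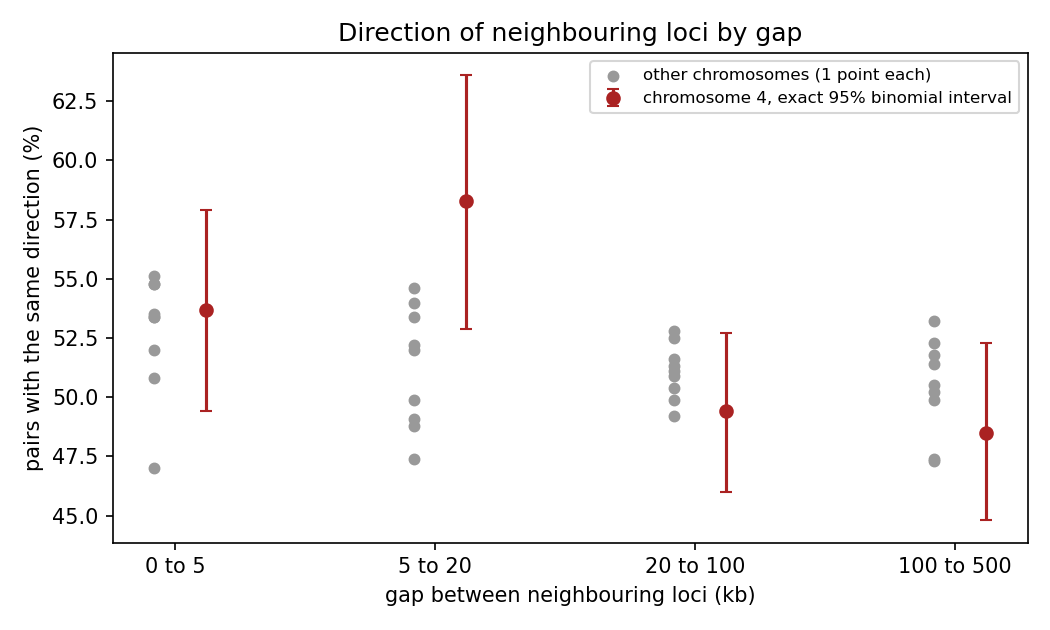
Share of pairs of consecutive loci with the same sign of the genotype difference (vertical axis, percent), by the gap between the loci in kb. The chromosome 4 point carries its exact 95% binomial interval, and each grey point is another chromosome; chromosome 4 lies above the grey points at 5 to 20 kb, with 58.3%, and among them at the other gaps.

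Neighbours of called members passed the unadjusted threshold about as often as rows in general. Of the 34 nearest members, 1 on each side of each called one, 18 had the same direction as the called member, 3 had an unadjusted p below 0.05 and 0 were called (limma), where 9.83% of all rows and 11.5% of the members had such a p and 0.692% of all rows were called. The gaps to them ran from 234 to 675204 bases. The clearest case was next to the fall at 35382868. The neighbour at 35395095 to 35402127 stood at 3.31, 3.46 and 3.45 scaled RPKM in WT and at 1.81, 1.76 and 1.58 in the mutant (log2 difference -0.7, limma, adjusted p = 0.0645). Its genotypes were well apart. The other neighbours with such a p lay beside rises: the locus at 165248405 to 165251008 with a log2 difference of 0.71, and that at 170251430 to 170260080 with 0.21. By contrast, the loci 323 and 234 bases to either side of the fall at 36529537 had log2 differences of 0.08 and -0.2.

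Runs of at least 3 consecutive loci, each with an unadjusted p below 0.05 and the same direction, numbered 3 on chromosome 4. Chromosome 7 had 17 such runs and the other chromosomes 0 to 3. The first was higher in the mutant, with loci at 34049462 to 34055456, 34253327 to 34253915 and 34294926 to 34295919. Their log2 differences were 0.3, 0.68 and 0.67 (limma, adjusted p = 0.207, 0.123 and 0.272). The third of them was abundant, at 210, 211 and 263 scaled RPKM in WT against 416, 261 and 437 in the mutant, and zmbzip22 replicate 2 overlapped with WT. The second run was closely packed, at 65776672 to 65788512, 65801480 to 65802890 and 65845328 to 65852416. Its log2 differences were small, 0.29, 0.27 and 0.33 (limma, adjusted p = 0.29, 0.29 and 0.377). The third was lower in the mutant, at 165947434 to 165953456, 165996357 to 165999622 and 166002883 to 166005925, with log2 differences of -0.65, -0.31 and -0.83 (limma, adjusted p = 0.0743, 0.424 and 0.437). Its first locus stood at 4.84, 4.51 and 5.32 in WT and at 2.79, 2.9 and 2.57 in the mutant. Without WT replicate 3, or without zmbzip22 replicate 1, 1 run was left.

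Some members lay beside the 20 rows at or above 1000 RPKM. Of those rows 14 lay in 9 loci between 5098146 and 5561370, and 0 of the 20 were called (limma). Within 200 kb of that stretch there were 37 tested members, of which 13 had a positive log2 difference, 7 an unadjusted p below 0.05, and 1 was called. Over all rows 9.83% had such a p, 0.692% were called, and the median log2 difference was 0. The 1 called was the rise at 5319595, given above. Its nearest neighbours, at 5310937 to 5311278 and 5380347 to 5387754, had log2 differences of -0.04 and 0.03. The other rows at or above 1000 RPKM had 2 to 13 members within 200 kb of each stretch, of which 0 to 3 had an unadjusted p below 0.05. Among these only the fall at 36529537 was called. Some members share a locus with abundant rows. The member row at 5548769 to 5561370 measured 340, 366 and 415 scaled RPKM in WT against 361, 320 and 441 in the mutant, and the genotypes overlapped. Such rows may share reads with the abundant ones.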

How the data were processed

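The authors deposited RPKM for each row, per the file headers. TopHat, SAMtools 0.1.19 and the build B73 RefGen_v3 are named in the submitters' processing notes; the RPKM program, annotation, strand setting and treatment of reads with several alignments are not stated there. No sequence is shown, since no genome of this build was used.

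Depth was recovered from the deposited RPKM values: in 99.4% of rows above 0 in at least 2 libraries they were whole multiples of 1 read within 0.01 reads, and reads are the smallest such numbers. Libraries were scaled by median-of-ratios factors, taken from the rows that exceed 1 RPKM throughout. A row was tested if 3 or more libraries reached 1 scaled RPKM, using log2(scaled RPKM + 1) with limma 3.58.1 in R 4.3.3 (trended, robust, two-sided, no covariate), with Benjamini-Hochberg adjustment over all 28163 rows. Log2 differences, mutant minus WT, are on this scale and understate changes of low rows.

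All called members, the 5 most abundant, the rows at the limits, the runs and the nearest neighbours of called members are named by rule; others were picked for their values, as stated. The members and lists were chosen with earlier results of these data known. The alternatives tried were other scaling, pseudocounts, filters, covariates, moderation and sets of libraries. Results that moved under them, and the calls under the other pseudocount, are given below.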

Additional observations from a re-analysis of the deposited data

How the results depend on the processing

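With all libraries 10 members were called higher and 7 lower in the mutant (limma). Barcode length as a covariate gave 23 and 15, no filter 3 and 3, and replicates 1 and 2 alone 3 and 1. Without trended and robust moderation 4 were called higher and 10 lower, with 10 of the 17 calls among them and 0.572% of all rows called. Leaving out 1 library gave 1 to 4 higher and 1 to 4 lower. The shares of all rows called moved too, from 0.692% to 1.33, 0.289 and 0.247% in the first 3 of these fits and to 1.01% with a replicate block. With that block 20 members were higher and 13 lower, 16 of the 17 calls among them (186832741 lost its call, limma, adjusted p = 0.055), and 3 of the 10 narrow loci passed. Deviations of same-numbered libraries correlated at 0.05, 0.12 and 0.38, so the numbers were not taken to pair them. A pseudocount of 0.1 gave 8 higher and 5 lower, with 0.561% of all rows called. Under it the largest fall, at 54364448, and the largest rise, at 134793015, lost their calls (limma, adjusted p = 0.0625 and 0.138). So did 164809396 and 165667700 (limma, adjusted p = 0.0556 and 0.0639). Members with an unadjusted p below 0.05 numbered 324, and 194 with a filter of 5 scaled RPKM, under which only 1680 members were tested. The 3 runs became 5 with barcode length as a covariate and 5 with the replicate block, and 1 to 3 without 1 library. The share of neighbouring pairs with the same direction, 52.5%, was 56.7% with values as deposited and 55.4% with gaps up to 20 kb. The summed level, lower in the mutant by a difference of -118 scaled RPKM, was higher by 1920 RPKM with values as deposited, and ran from -1070 to 795 without 1 library. The 7 windows with a share of 20% or more, counted after the data were seen, numbered 3 to 6 without 1 library. With the replicate block they numbered 10, while those on chromosomes other than 4 and 7 went from 5 to 26. Over the alternatives the 17 called members kept the call in 114 values and lost it in 119. The cause was not tested for any of these, except that some fits hold fewer samples or rows. The floor of 3 reads, a chosen setting that covers counting error only, was 0.189 to 0.265 RPKM for a model of 1 kb and is higher for shorter models.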
